A study of Danio rerio with 6 samples.

Results

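The genes described here make polyamines or regulate their synthesis: ornithine decarboxylase, S-adenosylmethionine decarboxylase, spermidine synthase, spermine synthase, 4 antizymes and 2 antizyme inhibitors, 10 genes of the 24462 in the deposited table. They were chosen by name, and each was found by its Ensembl identifier in a gene-name table, in which 6 of the 10 keep their zebrafish symbol apart from capitals and 4 stand under a capital stem without the paralogue letter. OAZ1 and OAZ2 are the identifiers left for oaz1a and oaz2a, since oaz1b and oaz2b have their own. AZIN1 is the symbol of 2 identifiers, and which is azin1a and which azin1b was not given, so they are named by identifier. The family was picked with results of these libraries known, so its fold changes and adjusted p-values describe the genes and are no independent evidence.

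Polyamines (putrescine, spermidine and spermine) are small, positively charged molecules that bind RNA and DNA and are needed by growing cells. Ornithine decarboxylase makes putrescine from ornithine, S-adenosylmethionine decarboxylase supplies the aminopropyl groups, and spermidine synthase and spermine synthase add these groups in turn. Antizymes, whose translation needs a ribosomal frameshift that polyamines promote, bind ornithine decarboxylase and bring it to the proteasome. Antizyme inhibitors resemble ornithine decarboxylase, lack its activity and bind antizyme in its place.

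The libraries are 3′ RNA-seq of whole zebrafish embryos of the wild-type line Tropical 5D, in which each read counted marks the end of a transcript. The FBSA group was held from 8 h after fertilization in 47 µM perfluorobutane sulfonamide (FBSA), a short perfluorinated sulfonamide, and the control group in the solvent alone. Both groups carried 0.5% methanol, had lost the chorion at 4 h, and harvest was at 48 h. A library was made from 10 pooled embryos, with 3 libraries a group, and nothing in the labels says whether the pools came from separate clutches, so the p-values rest on the spread among these pools only. The question addressed here is how exposure altered the mRNA levels of this family.

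The libraries held 23906021 to 33356411 reads in genes, and the members 22 to 22133 reads in a library. Values below are normalized counts, that is reads divided by a size factor per library, recovered from the deposited log2 values. Defining markers of 10 embryonic tissues were checked against the whole-embryo label: 32 of 33 marker identifiers had 10 or more normalized counts in every library, and the exception was FABP1 (ENSDARG00000019357), which had 0 in at least 1 library. FBSA replicate 2 and control replicate 2 stood farthest apart on principal component 1, with scores of 54.0 and −65.5 (34.3% of the variance). The header names stand 1 cell to the left of the values. Read without a shift, a control name would stand over the gene identifiers, and the column taken as control replicate 3 would bear an FBSA name. Results without that library are therefore given for ODC1, oaz1b, ADI1 and TOP1.

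All 10 members were tested. With FBSA, ODC1, the gene of ornithine decarboxylase, rose 2.22-fold, and oaz1b, the antizyme gene with the most reads, fell 1.52-fold. The other 8 did not pass (limma, Benjamini-Hochberg adjusted p over all 16890 genes tested, threshold 0.05). Among all genes tested 0.705% passed, 0.568% higher and 0.136% lower. In 6 of the 10 members the FBSA libraries did not overlap the controls, 3 higher and 3 lower, where the groups of 19.9% of all genes tested did not overlap, 10.0% with FBSA higher and 9.91% with FBSA lower. The median log2 fold change of the members was 0.12, and that of all genes tested was −0.0009. In whole embryos, fewer cells of a type and less RNA per cell cannot be told apart.

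**Figure D1:**
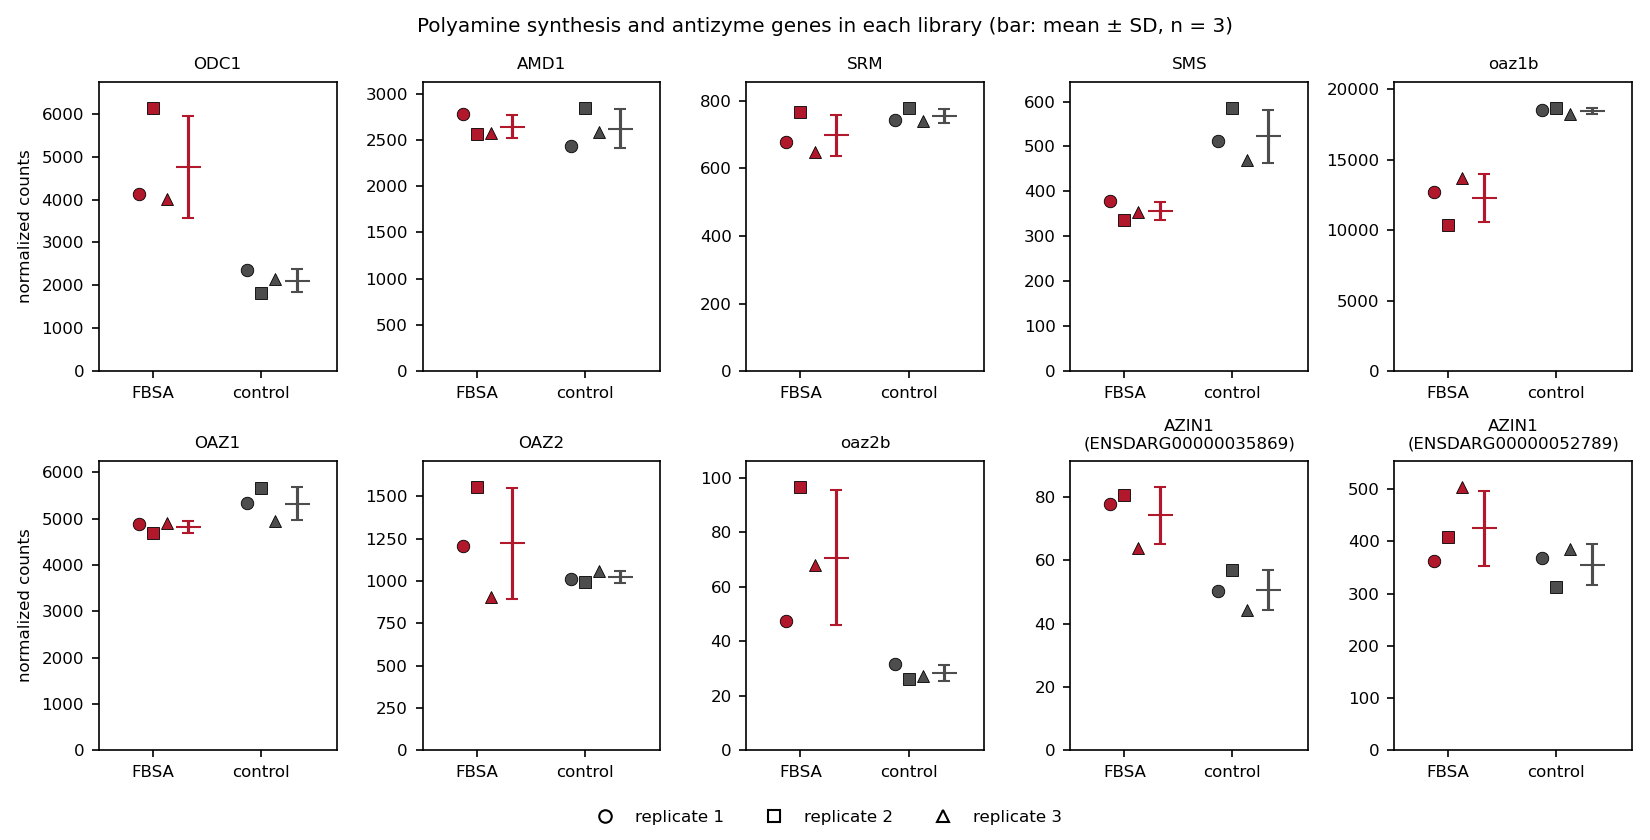
Normalized counts (y axis, from 0) of the 10 members in the 3 FBSA libraries (red, left) and the 3 control libraries (grey, right), with marker shape for the replicate number and the mean ± SD beside each group. ODC1 lay between 4023 and 6137 with FBSA, above all controls, and oaz1b between 10367 and 13719, below all controls.

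ODC1 (ENSDARG00000007377), whose product catalyses the first step of the pathway, had 4125, 6137 and 4023 normalized counts in the FBSA libraries, against 2354, 1824 and 2157 in the control libraries. The groups did not overlap, and FBSA replicate 2 stood above the other FBSA libraries while control replicate 2 was the lowest control. The means were 4762 ± 1192 with FBSA and 2112 ± 267 in control (SD, n = 3 each). The log2 fold change was 1.15 ± 0.16 SE, a 95% interval of 1.75-fold to 2.82-fold (limma adjusted p = 0.00582). Leaving out both libraries numbered 2 gave 0.85 on the log2 scale (limma adjusted p = 0.00141). Those were the highest and the lowest library of ODC1, and without them the SE fell to 0.098. The smaller p of that fit is therefore no added evidence. Leaving out control replicate 3 gave 1.17 (limma adjusted p = 0.0176).

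None of the 3 genes of the later enzymes passed the test. AMD1 (ENSDARG00000043856), the S-adenosylmethionine decarboxylase gene, had 2785, 2570 and 2574 normalized counts with FBSA and 2431, 2848 and 2587 in control, and the groups overlapped. Its log2 fold change was 0.014 with a 95% interval of −0.21 to 0.24, an interval whose upper end is a 1.18-fold increase (limma adjusted p = 0.970). The sign of this near-zero value turned under total-count scaling (−0.017), upper-quartile scaling (−0.0090), and without FBSA replicate 1 (−0.025) or control replicate 1 (−0.039). SRM (ENSDARG00000055760), the spermidine synthase gene, had 678, 767 and 648 normalized counts with FBSA and 745, 779 and 740 in control. The groups overlapped through FBSA replicate 2, and the log2 fold change was −0.12 with a 95% interval of −0.40 to 0.16 (limma adjusted p = 0.730).

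SMS (ENSDARG00000008155), the gene of spermine synthase, which makes the largest of these polyamines, had 378, 337 and 354 normalized counts with FBSA and 512, 586 and 469 in control. Every FBSA library lay below every control library. The means were 356 ± 20.8 with FBSA and 522 ± 59.1 in control (SD, n = 3 each). The log2 fold change was −0.55 ± 0.15 SE, which did not pass (unadjusted p = 0.0034, limma adjusted p = 0.150). In the alternatives on the scale of counts its log2 fold change lay between −0.62 and −0.42. With the deposited log2 values, which are on another scale, the difference was −0.40. Over all alternatives its limma adjusted p lay between 0.121 and 0.426.

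**Figure D2:**
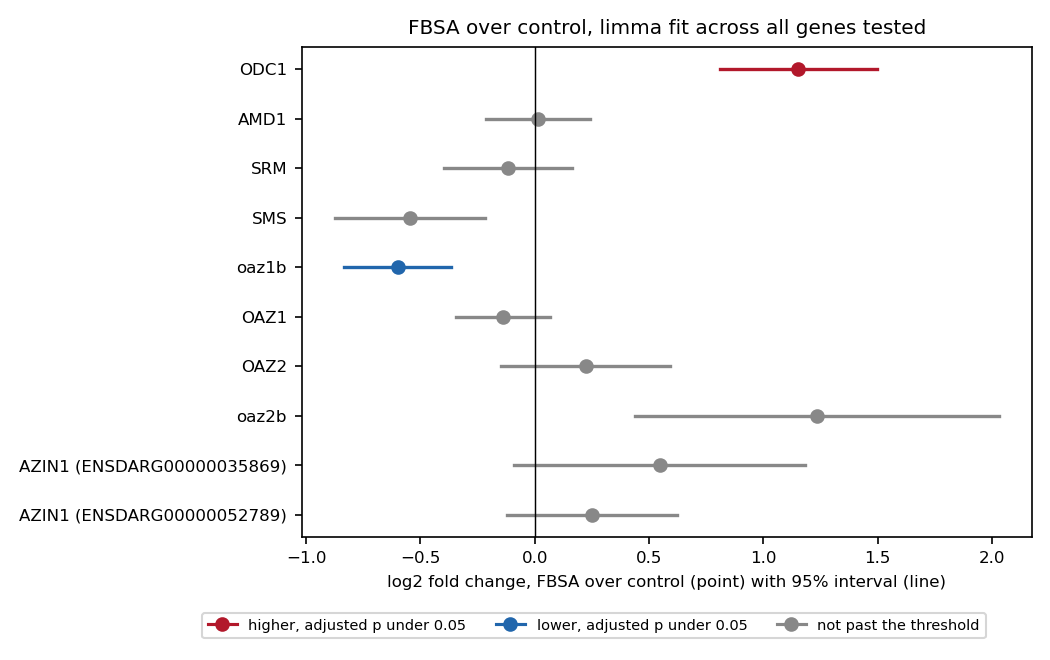
Log2 fold change of FBSA over control (x axis) for each member, with the 95% interval as a line, red where the gene was higher and blue where it was lower at an adjusted p under 0.05. ODC1 at 1.15 and oaz1b at −0.60 are coloured, and the intervals of SMS and oaz2b also leave out 0 although their adjusted p did not pass. An interval leaves out 0 where the unadjusted limma p is under 0.05, as in 4 members. Among all 16890 genes tested, 1240 were higher and 1055 lower at such a p.

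Among the antizymes, oaz1b (ENSDARG00000104782) had 12750, 10367 and 13719 normalized counts with FBSA, against 18557, 18643 and 18258 in control. The controls lay close together, all FBSA libraries were lower, and FBSA replicate 2 was the lowest. The means were 12279 ± 1725 with FBSA and 18486 ± 202 in control (SD, n = 3 each), and the log2 fold change was −0.60 ± 0.11 SE (95% interval −0.83 to −0.37, limma adjusted p = 0.0245). The call was lost without FBSA replicate 1 (limma adjusted p = 0.0903), FBSA replicate 2 (0.0820), control replicate 1 (0.0581) or control replicate 3 (0.0845). Over the leave-one-out fits the log2 fold change stayed between −0.69 and −0.48.

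OAZ1 (ENSDARG00000071403), the paralogue of oaz1b, had 4883, 4678 and 4909 normalized counts with FBSA and 5345, 5666 and 4954 in control. The FBSA libraries lay below the controls, the nearest being FBSA replicate 3 and control replicate 3. Its log2 fold change was −0.14, with a 95% interval of −0.35 to 0.07 (limma adjusted p = 0.551).

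OAZ2 (ENSDARG00000045929), a second antizyme type, had 1206, 1554 and 904 normalized counts with FBSA and 1012, 993 and 1061 in control. The controls lay within the range of the FBSA libraries, whose SD was 325 against 35.0 in control (n = 3 each). The log2 fold change was 0.22 with a 95% interval of −0.15 to 0.59 (limma adjusted p = 0.597). Leaving out FBSA replicate 2 gave 0.032 and leaving out FBSA replicate 3 gave 0.42.

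The paralogue oaz2b (ENSDARG00000059815) was the member with the fewest reads, 22 to 103 in a library. It had 47.6, 96.7 and 68.1 normalized counts with FBSA and 31.9, 26.1 and 27.3 in control. All FBSA libraries were above all controls, and they differed among themselves by more than the controls did. The means were 70.8 ± 24.6 with FBSA and 28.4 ± 3.05 in control (SD, n = 3 each). The log2 fold change of 1.23 ± 0.37 SE did not pass (95% interval 0.44 to 2.03, unadjusted p = 0.00533, limma adjusted p = 0.173).

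The antizyme inhibitor genes differed in level, at 44.3 to 80.7 and 312 to 504 normalized counts in a library. AZIN1 (ENSDARG00000035869) had 77.9, 80.7 and 64.0 normalized counts with FBSA and 50.3, 56.9 and 44.3 in control, so that the groups were apart. Its log2 fold change was 0.55 with a 95% interval of −0.09 to 1.18 (limma adjusted p = 0.444). AZIN1 (ENSDARG00000052789) had 363, 409 and 504 normalized counts with FBSA and 368, 312 and 386 in control, which overlapped, with a log2 fold change of 0.25 (95% interval −0.12 to 0.62, limma adjusted p = 0.553). Leaving out FBSA replicate 3 gave 0.12, leaving out control replicate 2 gave 0.16 and leaving out FBSA replicate 1 gave 0.36.

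Paralogues were compared by their log2 ratio within each library. The ratio of OAZ1 to oaz1b was −1.38, −1.15 and −1.48 with FBSA and −1.80, −1.72 and −1.88 in control, so that OAZ1 made up a larger part of the pair in all FBSA libraries, by 0.46 ± 0.11 SE. The ratio of OAZ2 to oaz2b was 4.63, 3.99 and 3.71 with FBSA and 4.95, 5.20 and 5.23 in control, a difference of −1.01 ± 0.29 SE. For the AZIN1 pair the ratio of ENSDARG00000035869 to ENSDARG00000052789 was −2.20, −2.33 and −2.96 with FBSA and −2.85, −2.43 and −3.10 in control, which overlapped, and the difference was 0.30 ± 0.30 SE. The two-sided exact permutation p-values were 0.1, 0.1 and 0.4 (0.15, 0.15 and 0.4 after Benjamini-Hochberg adjustment over the 3 pairs). With 3 libraries against 3 the smallest p this test allows is 0.1, so no pair could pass. How reads that match both paralogues were counted was not given, and separate values of paralogues are uncertain to that extent.

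The libraries numbered 2 marked the ends of the range in several members. In 5 of the 10 (ODC1, oaz1b, OAZ1, oaz2b and SMS) FBSA replicate 2 and control replicate 2 were the highest and the lowest library, in either order, as they were in 18.4% of all genes tested. These 5 were all among the 6 members whose groups did not overlap, and the share among such genes alone was not taken. Genes of the cell cycle and DNA replication were set beside the members. Their mean log2 difference from the control mean was 0.33, 0.56 and 0.27 in the FBSA libraries and 0.12, −0.22 and 0.10 in the controls. Of 15 such genes tested 14 had log2 fold changes above 0 (median 0.26) and 0 passed, against 49.8% and 0.705% of all genes tested. The largest were in RRM2 (ENSDARG00000078069), a ribonucleotide reductase subunit gene, at 1.42 (limma adjusted p = 0.109), and in RRM2 (ENSDARG00000020711) at 0.80 (limma adjusted p = 0.349). Leaving out control replicate 2 gave 0.87 and 0.37 for these RRM2 genes, and leaving out both libraries numbered 2 gave 0.69 and 0.047. The means of the MYC network, described further on, were also highest in FBSA replicate 2 (0.28) and lowest in control replicate 2 (−0.057). Those of the fast muscle markers were lowest in FBSA replicate 2 (−0.24) and highest in control replicate 2 (0.054). None of the other tissue marker lists, nor of the other wider-pathway lists described further on, had these 2 libraries at opposite ends. The 3 heart markers had means of 0.60, 0.49 and 0.65 in the FBSA libraries and −0.16, −0.01 and 0.18 in the controls, which did not overlap. The log2 fold changes of these 3 genes were uneven, at 0.26, 0.33 and 1.16, and 1 of the 3 passed as higher with FBSA. The means of the 4 pigment cell markers, at 0.18, 0.14 and 0.18 with FBSA and 0.08, −0.16 and 0.07 in control, did not overlap either, and 0 of the 4 passed. For the markers of the other tissues checked, the list means overlapped between the groups. Taken singly, 19.9% of all genes tested had groups that did not overlap, and 0.705% passed. No such share was taken for means of several genes, so the 19.9% is not a like measure for the list means. The part of these lists in the values of the members was not tested.

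The wider pathway was described from 7 lists of 80 symbols, of which 76 matched. They gave 77 identifiers besides the members, and 66 were tested. Of these ADI1 rose, 0 fell and 65 did not pass, with 47 log2 fold changes above 0, 19 below and a median of 0.16. Among all genes tested 49.8% were above 0, and 0.705% passed, 0.568% higher and 0.136% lower.

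Ornithine, the substrate of ornithine decarboxylase, is made from arginine by arginase. Of the 11 genes tested for ornithine and arginine supply 0 passed, with a median log2 fold change of 0.18. ARG2, the mitochondrial arginase gene, had 152, 222 and 136 normalized counts with FBSA, against 77.1, 59.3 and 71.5 in control. All FBSA libraries were higher, and the log2 fold change of 1.26 ± 0.26 SE missed the threshold (limma adjusted p = 0.0517). It passed with upper-quartile scaling (limma adjusted p = 0.0485) and with robust moderation (0.0401), and the range over the alternatives was 0.0401 to 0.266. ASL, which encodes argininosuccinate lyase, had a log2 fold change of 0.48 (limma adjusted p = 0.440).

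Transport of basic amino acids and polyamines gave 14 tested genes, of which 0 passed. The largest log2 fold change was in SLC7A3 (ENSDARG00000020645), a cationic amino acid transporter gene, with 655, 905 and 478 normalized counts with FBSA and 395, 163 and 265 in control. The groups were apart, with a log2 fold change of 1.35 ± 0.29 SE (limma adjusted p = 0.0655, range 0.0154 to 0.275 over the alternatives). The other SLC7A3 identifier, ENSDARG00000061566, had a log2 fold change of 0.43 (limma adjusted p = 0.523). SLC3A2, the heavy chain of several amino acid transporters, had 0.55 (limma adjusted p = 0.363). Its paralogue slc3a2a had 0.13 (limma adjusted p = 0.697).

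S-adenosylmethionine is the source of the aminopropyl groups. Of 14 genes tested in the methionine and S-adenosylmethionine cycle 0 passed, with a median log2 fold change of 0.17. The largest were in mat2al, of the methionine adenosyltransferase family, at 0.64 (limma adjusted p = 0.467) and in MTR, the methionine synthase gene, at 0.62 (limma adjusted p = 0.655). Methylthioadenosine, the by-product of spermidine and spermine synthesis, is turned back into methionine by the salvage pathway, of which 5 genes were tested.

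ADI1, whose product, acireductone dioxygenase, acts near the end of that salvage pathway, had 937, 1102 and 997 normalized counts with FBSA and 624, 561 and 642 in control. The groups were well apart, with means of 1012 ± 83.7 with FBSA and 609 ± 42.3 in control (SD, n = 3 each). It rose 1.66-fold (log2 fold change 0.73 ± 0.13 SE, limma adjusted p = 0.0225). The call was lost in 8 of 17 alternatives, among them each fit without 1 library other than control replicate 2, with limma adjusted p-values of 0.0686, 0.106 and 0.0678 without FBSA replicate 1, 2 or 3 and 0.0533 and 0.0695 without control replicate 1 or 3. Its log2 fold change lay between 0.61 and 0.79 in the alternatives on the scale of counts. With the deposited log2 values, which are on another scale, the difference was 0.60. GOT1, an aspartate aminotransferase gene, had 359 to 460 normalized counts with FBSA and 501 to 645 in control. All its FBSA libraries were lower, with a log2 fold change of −0.47 (limma adjusted p = 0.237). ENOPH1, of the same salvage pathway, had 0.19 (limma adjusted p = 0.615).

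Polyamines are broken down after acetylation or by direct oxidation. Of 5 tested genes 0 passed. SAT2, PAOX and paox1 had too few counts to be tested, so the 5 do not cover all steps of both routes. SMOX, the spermine oxidase gene, had 717, 753 and 766 normalized counts with FBSA and 523, 358 and 500 in control, with all FBSA libraries higher (log2 fold change 0.71 ± 0.16 SE, limma adjusted p = 0.0777, range 0.0511 to 0.252 over the alternatives). SAT1 (ENSDARG00000095908), of the spermidine and spermine acetyltransferases, had 4030, 4974 and 4460 normalized counts with FBSA and 2893, 3819 and 3350 in control, also apart (log2 fold change 0.42, limma adjusted p = 0.168). The other tested SAT1 identifiers, ENSDARG00000032272 and ENSDARG00000035652, had log2 fold changes of −0.077 and 0.19 (limma adjusted p = 0.947 and 0.606).

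Spermidine is also the donor for hypusine, a modified residue of the translation factor eIF5A. None of the 4 genes tested passed. DHPS, which encodes deoxyhypusine synthase, had a log2 fold change of 0.50 (limma adjusted p = 0.388) and dohh, the hydroxylase of the next step, −0.16 (limma adjusted p = 0.692). ODC is a known transcriptional target of MYC in mammals. Of 13 genes of the MYC network 0 passed, with a median log2 fold change of 0.17. The largest were in mych, at 0.85 (limma adjusted p = 0.591), and in MXD4, at −0.49 (limma adjusted p = 0.366). The mych gene had 13.2 to 58.2 normalized counts in the FBSA libraries and 7.12 to 26.8 in the controls. MXD4 had 89.4 to 104 with FBSA and 129 to 158 in control, so all its FBSA libraries were lower. The median of 0.17 mixes kinds of gene. Genes of the MYC, MYCN, MYCL and mych symbols lay between 0.13 and 0.85. MAX was at −0.082, and the MXD, MXI1 and MNT genes lay between −0.49 and 0.27.

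**Figure D3:**
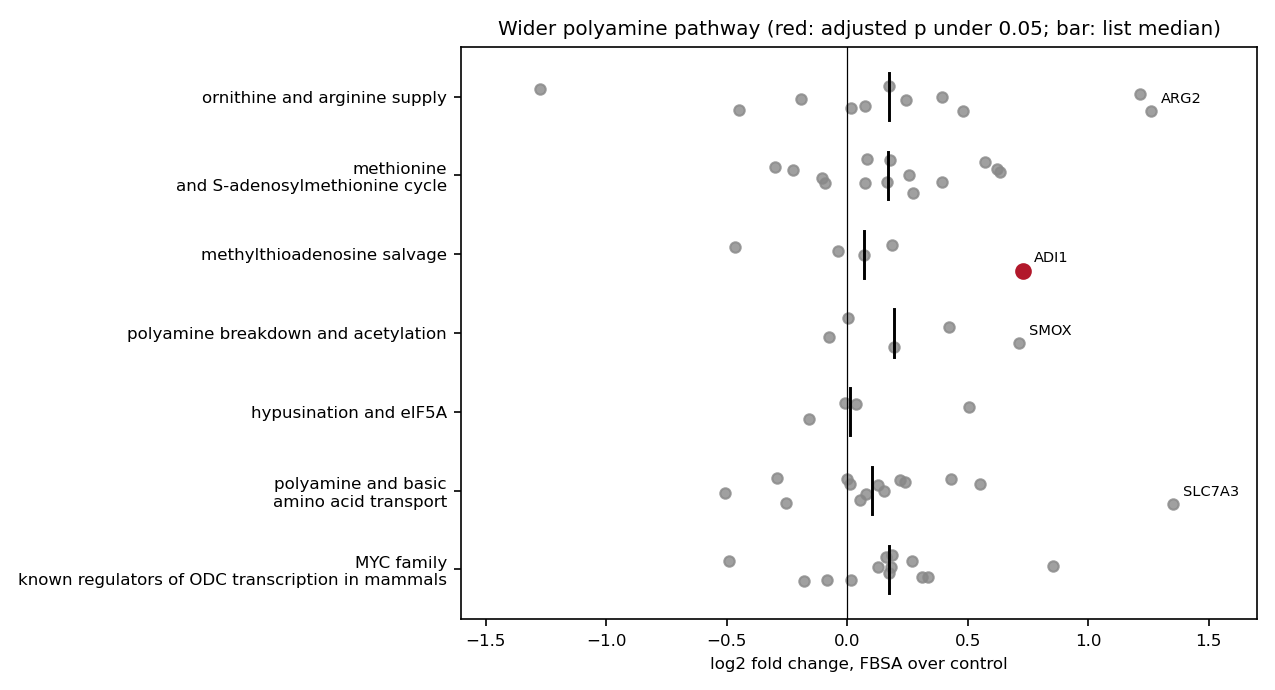
Log2 fold change of FBSA over control (x axis) for the 66 tested genes of the 7 wider lists, 1 point per gene and a bar at each list's median, with the points spread vertically only to keep them apart. ADI1 at 0.73 is red, as the only one of these genes at an adjusted p under 0.05, and ARG2 at 1.26, SMOX at 0.71 and SLC7A3 (ENSDARG00000020645) at 1.35 are named.

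The pattern of ODC1 and of oaz1b over the 6 libraries was compared with those of 14613 other genes by the root mean square difference of log2(normalized count + 1), each gene centred on its own mean. Genes were picked by nearness over these same libraries, so fold changes and peaks like those of ODC1 or oaz1b follow from the choice. ARG2 was the nearest to ODC1, at 0.065. The 5 nearest also held SLC1A4 at 0.090, mid1ip1a at 0.109 and H1-10 at 0.112. SLC1A4, a neutral amino acid transporter gene, had 1544, 2051 and 1599 normalized counts with FBSA and 866, 739 and 792 in control (log2 fold change 1.11, limma adjusted p = 0.00306). The genes mid1ip1a and H1-10, a linker histone gene, had log2 fold changes of 1.19 and 1.17 (limma adjusted p = 0.00306 and 0.00156).

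The nearest gene to oaz1b was rybpa, at 0.038, followed by scn4ab at 0.047, TOP1 at 0.048, NEXMIF at 0.052 and TGM2 at 0.057. TOP1, the DNA topoisomerase I gene, had 6260, 5162 and 6184 normalized counts with FBSA and 8805, 9189 and 8764 in control. It was the only one of these 5 to pass (log2 fold change −0.61, limma adjusted p = 0.0157), and its call was lost without FBSA replicate 1 (0.0538), FBSA replicate 2 (0.0595) or control replicate 3 (0.0679), and with the replicate number as a block (0.0901).

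**Figure D4:**
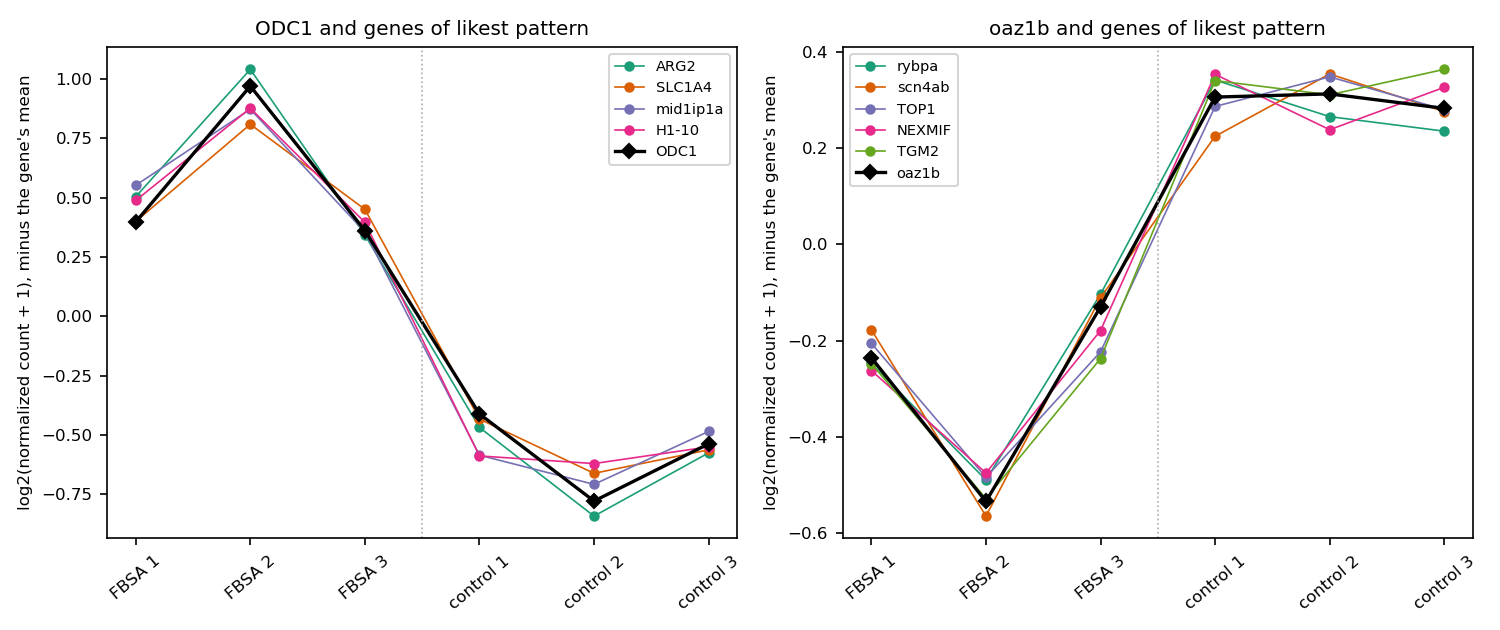
Level in each library on the log2(normalized count + 1) scale, centred on each gene's mean (y axis), of ODC1 (left, black) and oaz1b (right, black) with genes nearest to each (coloured, 4 for ODC1 and 5 for oaz1b), FBSA libraries left of the dotted line and controls right of it. ODC1 and the 4 genes drawn with it peak in FBSA replicate 2, and oaz1b and its neighbours are lowest there. The coloured genes were picked for this likeness.

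The call of ODC1 held in each of the 17 alternatives run, with limma adjusted p-values from 0.00141 to 0.0438. The 0.00141 came from the fit without both libraries numbered 2, the highest and the lowest of ODC1. The call of oaz1b held in 12 of 17, with limma adjusted p-values from 0.0142 to 0.1.

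**Figure D5:**
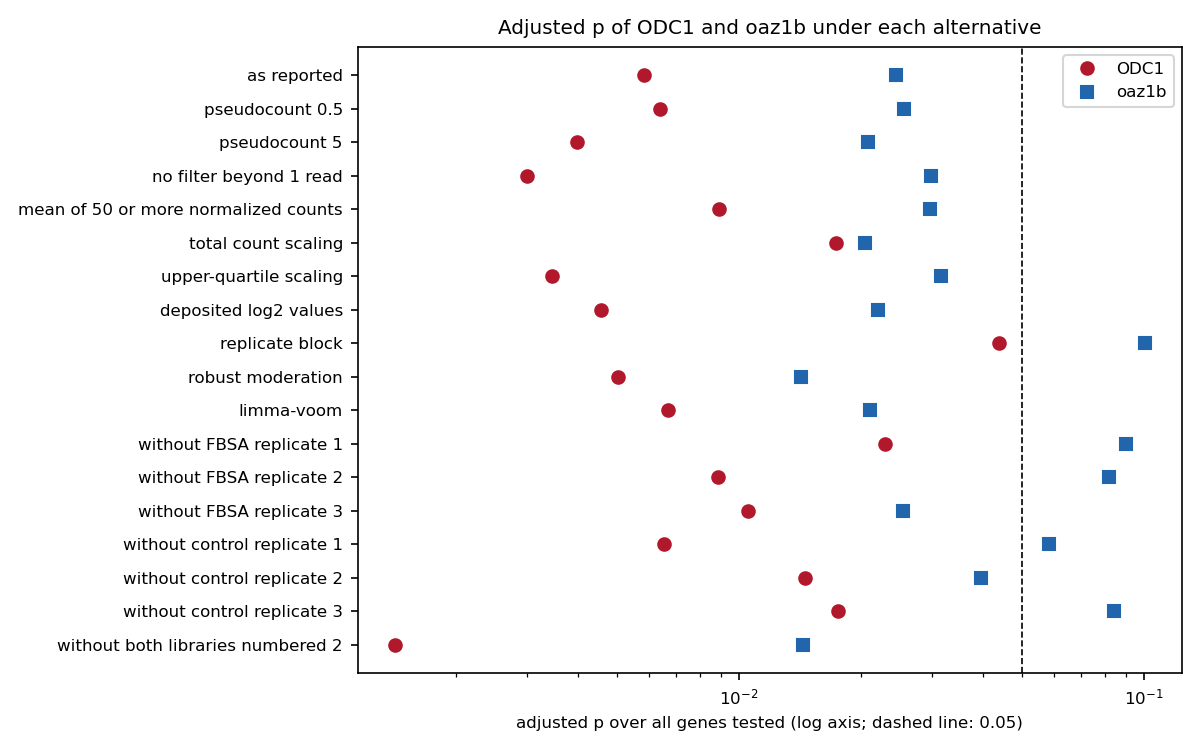
Adjusted p over all genes tested (x axis, log scale) of ODC1 (red circles) and oaz1b (blue squares) as reported and under each of 17 alternatives, with a dashed line at 0.05. All points of ODC1 lie left of the line, and 5 points of oaz1b lie right of it.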

How the data were processed

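The samples were 3 FBSA and 3 control libraries, grouped by treatment in the labels. Per the labels' protocols, libraries were single-end Lexogen QuantSeq 3′ FWD. STAR, HTSeq and DESeq2 with the build GRCz11 are listed in the submitters' processing notes, without versions; the annotation is not given in the sources used here. Values were log2 as the authors deposited them for 24462 genes with a common floor of 6.52, and they fit the formula of the DESeq2 variance-stabilising step. Its inverse gave counts divided by size factors: 100.0% of values above the floor were whole reads within 0.1, the largest distance being 0.0181. The design had assumed normalized counts, so the recovered ones were tested. The chi-square per degree of freedom between libraries, 10.1 to 52.3, marked no duplicate.

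The 16890 genes that reached 10 normalized counts in 3 or more libraries were fitted with limma 3.58.1 in R 4.3.3 on log2(normalized count + 1), with group as the only term and a trend, two-sided. Fold changes are on that scale and understate those of low genes. No source used here mentions molecular identifiers, so reads may not be independent molecules. Members and lists were chosen with earlier results of these data known. The named genes were all members, every wider-list gene past the threshold and in each list the 2 largest absolute log2 fold changes besides (mean of 20 or more normalized counts), and the 5 likest genes of each member past the threshold, of which 1 is not reported here. Other tested identifiers of SAT1 and SLC7A3, and slc3a2a, were given besides. Alternatives covered pseudocount, filter, scaling, the deposited log2 values, replicate block, robust moderation, limma-voom, left-out libraries and the threshold. Python 3.11.15 was used for the recovery and figures. No sequences or coordinates were used.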

Additional observations from a re-analysis of the deposited data

How the results depend on the processing

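Over the fits without 1 library each, the numbers of all genes past the threshold ran from 46 to 87 higher and from 4 to 23 lower, against 96 and 23 with all libraries. The log2 fold change of oaz1b ranged from −0.69 to −0.48, the member that rose was 1 in each, the members that fell were 0 to 1, and the wider-pathway genes that rose were 0 to 2. With the replicate number as a block (replicate block), 40 genes were higher and 7 lower, oaz1b kept a log2 fold change of −0.60 without passing (limma adjusted p = 0.1), so that 0 members fell, and 0 wider-pathway genes rose. Deviations from the group means had correlations of 0.021, −0.141 and −0.00462 between same-numbered libraries 1, 2 and 3. Between differently numbered libraries they lay from −0.139 to 0.126. With 3 libraries a group these values cannot decide whether the numbers pair the libraries. At a threshold of 0.1, 179 genes were higher and 58 lower and 4 wider-pathway genes were higher. The wider-pathway genes that rose were 0 with total-count scaling and 2 with upper-quartile scaling, the deposited log2 values or robust moderation. The log2 fold change of AMD1 turned to −0.017 and −0.0090 with total-count and upper-quartile scaling and ranged from −0.039 to 0.075 without 1 library, and that of mych turned to −0.15 without both libraries numbered 2; the cause was not tested. Without 1 library the difference of log2 ratios ranged from 0.36 to 0.53 for OAZ1 over oaz1b, from −1.27 to −0.81 for OAZ2 over oaz2b and from 0.14 to 0.53 for the AZIN1 pair. The filter at a mean of 50 normalized counts left oaz2b, MTR and mych untested. Among the members the fewest reads were in oaz2b and AZIN1 (ENSDARG00000035869), with 22 to 103 and 39 to 90 in a library.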

Other observations

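The values that follow were chosen after the members' levels were seen and are given as descriptions. For every 100 normalized counts of oaz1b there were 32.4, 59.2 and 29.3 of ODC1 in the FBSA libraries, against 12.7, 9.79 and 11.8 in the control libraries. The 4 antizyme genes summed to 18887, 16696 and 19601 normalized counts with FBSA and 24947, 25328 and 24300 in control. Of these sums oaz1b made up 67.5%, 62.1% and 70.0% with FBSA and 74.4%, 73.6% and 75.1% in control. The 2 AZIN1 genes summed to 441, 490 and 568 normalized counts with FBSA and 418, 369 and 430 in control, so all FBSA libraries were above all controls although 1 of the 2 genes overlapped between the groups. For every 100 normalized counts of SRM there were 55.8, 43.9 and 54.5 of SMS with FBSA and 68.8, 75.2 and 63.3 in control. In the ratios of ODC1 to oaz1b and of SMS to SRM, FBSA replicate 2 and control replicate 2 were the farthest apart. In 3′ libraries a transcript yields reads near its end whatever its length, so these counts were not divided by length, and the ratios compare libraries rather than the amounts of the mRNAs.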
